A study of Bos taurus with 7 samples.

Results

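The genes described here are those of luteal oxytocin: the hormone precursor OXT, the processing enzymes PCSK5 and PAM, the oxytocin-cleaving peptidase LNPEP, and the receptors OXTR and AVPR1A. They were chosen by symbol, and all 6 were found among the 19539 entries of the authors' deposited table, each on 1 entry. The corpus luteum secretes progesterone and develops from the follicle after ovulation. Whole bovine glands were compared between day 4 of the estrous cycle, with 3 libraries, and day 6, with 4 libraries. Cows of both groups had their cycles synchronised with an intravaginal progesterone device, a prostaglandin F2α (PGF2α) injection and gonadotropin-releasing hormone, and received no other treatment. The labels used here state neither breed nor age. Day 4 glands were removed after slaughter, and the labels give colpotomy (removal through the vaginal wall) for glands after day 6, so the route for day 6 is not clear and route and day cannot be told apart. Nothing in the labels ties each library to its own cow, and p-values therefore measure the spread between these samples.

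In ruminants the large luteal cells, which derive from granulosa cells, make oxytocin and store it in secretory granules together with its carrier neurophysin, cut from the same precursor. The uterine hormone PGF2α, which brings about luteal regression, releases this luteal oxytocin, and oxytocin acting on the uterine lining in turn stimulates PGF2α secretion. A prohormone becomes active in steps: convertases cut it at basic residues, a carboxypeptidase trims those residues, and PAM turns the terminal glycine into the amide that the mature peptide carries. Oxytocin signals through OXTR, a Gq-coupled receptor, and can also bind the related vasopressin receptor V1a, the product of AVPR1A.

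Levels below are the authors' mean TPM (a share of all transcripts, scaled for transcript length) for each day. The authors' deposited table holds 1 mean per day and no values per library, so the library range, the number of libraries that share a direction and the reads counted for each value are unknown. Changes are log2 fold changes of day 6 over day 4, the product of the authors' Wald statistic and standard error, given ± that standard error. A gene is called where the authors' adjusted p is under 0.05, and over the 19485 entries tested this held for 14.5%, with 4.12% higher and 10.4% lower on day 6. Of the 6 oxytocin genes 2 were called, AVPR1A as higher and OXTR as lower, and 4 were not. On the scale of the mean TPM itself changes lie lower by 0.21 (log2), and without the mitochondrially encoded genes, whose share of all TPM rose from 10.3% to 29.2%, they lie higher by 0.13. The 803 entries called higher and 2020 called lower became 299 and 3829 in the former case and 1848 and 1595 in the latter.

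**Figure D1:**
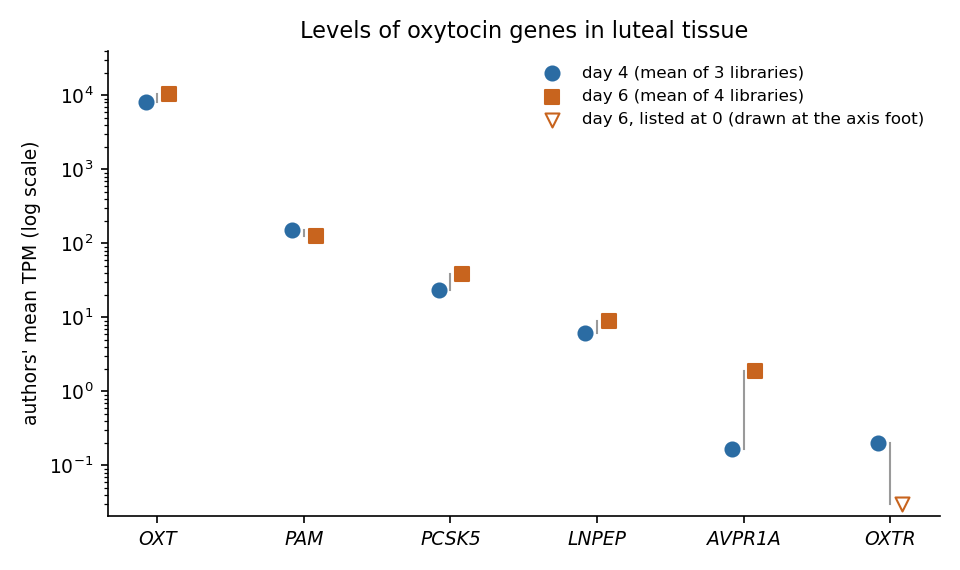
Authors' mean TPM (log axis) of the 6 oxytocin genes on day 4 (circles, mean of 3 libraries) and day 6 (squares, mean of 4 libraries), without error bars since the table gives no values per library. OXT stands at 8052 and 10393 TPM, AVPR1A moves from 0.168 to 1.88 TPM, and OXTR is listed at 0 on day 6 (open triangle at the axis foot).

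Expression of OXT was very high on both days. The authors' deposited table gave OXT a mean of 8052 TPM on day 4 and 10393 TPM on day 6, or 0.805% and 1.04% of all transcripts. It ranked 10 of 19539 entries on each day. Among nuclear genes listed by a symbol it ranked 1 on both days, ahead of the ribosomal protein gene RPS29 at 7064 TPM on day 4 and of the steroid enzyme gene HSD3B1 at 4624 TPM on day 6 in the authors' deposited table. With entries that have no symbol counted too, and the named mitochondrially encoded genes left out, it ranked 6 on day 4 and 3 on day 6. These ranks compare mean levels, with no error.

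No difference in OXT between the days was detectable. Its log2 fold change was 0.56 ± 1.33, with a 95% Wald interval from -2.05 to 3.17 and an adjusted p of 0.83 in the deposited Wald test. In linear terms the interval runs from 0.242-fold to 8.99-fold, so the comparison leaves both directions within reach. Among the 1036 entries averaging at least 100 TPM the median standard error was 0.27 in the authors' deposited table, and that of OXT was the tenth largest (rank 10). Among the 18 entries within 2-fold of OXT in mean level, a set that includes OXT itself, the standard error of OXT was the largest. How the libraries spread around the OXT means, and on which day, cannot be read from the table.

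**Figure D2:**
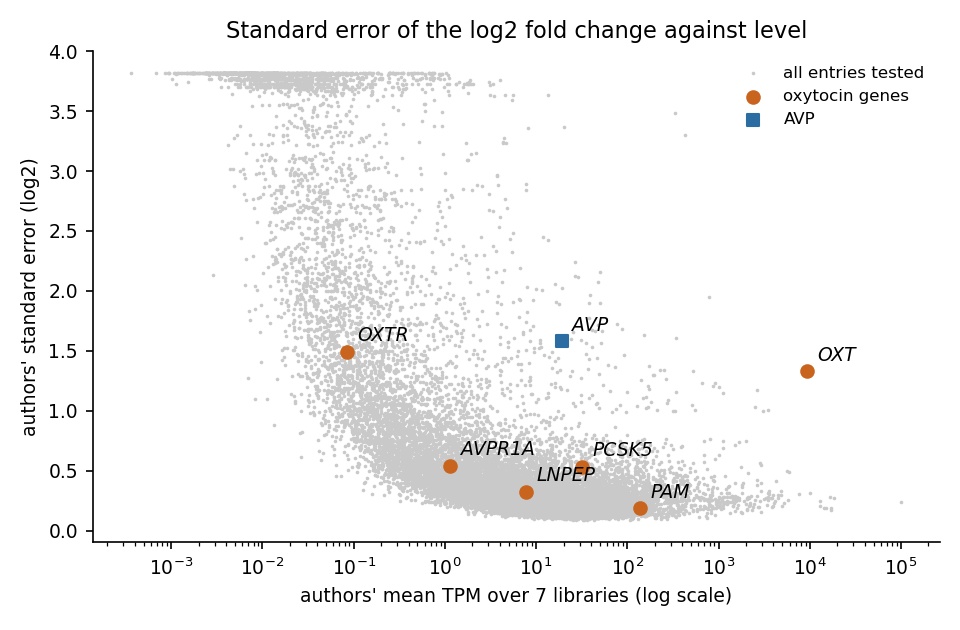
Authors' standard error of the log2 fold change (vertical) against the mean TPM over 7 libraries (horizontal, log axis), with all entries tested in grey, the 6 oxytocin genes as circles and AVP as a square. OXT, at 1.33, and AVP, at 1.58, lie far above entries of like level, while PAM, at 0.19, lies in the lower part of its range.

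Vasopressin (AVP), the close relative of oxytocin, had the same feature at a far lower level. The AVP and OXT genes are immediate neighbours in the RefSeq gene order of the assembly ARS-UCD2.0. They share a nearly identical exon that encodes part of neurophysin in cattle. AVP averaged 21.8 TPM on day 4 and 17.1 TPM on day 6 in the authors' deposited table, which is 0.27% and 0.164% of the OXT level. Its log2 fold change was -0.20 ± 1.58, with an adjusted p of 0.946 in the deposited test. That standard error exceeded those of 99.7% of the 5478 entries within 2-fold of AVP in mean level. Reads of the shared exon cannot be assigned with certainty, the counting method is not known here, and how far OXT reads contribute to the AVP value was not tested. Of the other vasopressin receptor genes, AVPR2 stood at 0.699 and 0.641 TPM and was not called (log2 0.09 ± 0.64, adjusted p = 0.942 by the authors), and AVPR1B was not matched.

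By mean level on both days, the entries with a symbol most like OXT were all mitochondrially encoded. The measure was the Euclidean distance in log2 mean TPM over the 2 days, and the nearest 5 were ATP6 (0.69), COX3 (0.83), COX2 (0.998), ND4L (1.15) and ND3 (1.15). All 5 were called higher by the authors, with log2 fold changes between 1.11 and 2.19, and their standard errors ran from 0.19 to 0.30. Among nuclear genes, a choice made after these values were seen, RPS29 (distance 1.47), TMSB10 (1.51) and SPARC (1.64) came nearest. Likeness over 2 means is a weak measure.

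In mean level the order on day 4 was OXT, PAM, PCSK5, LNPEP, OXTR and AVPR1A, and on day 6 only OXTR and AVPR1A had changed places. Whether neighbours in this order differ beyond their spread cannot be said without values per library.

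PAM, the copper- and ascorbate-dependent amidating enzyme, was the next most abundant of the 6 genes and the most tightly measured. PAM averaged 154 TPM on day 4 and 126 TPM on day 6 in the authors' deposited table. The log2 fold change was -0.09 ± 0.19, with a 95% interval from -0.46 to 0.27 and an adjusted p of 0.789 in the authors' test, so a change beyond 1.21-fold up or 0.727-fold down lies outside that interval. Those bounds hold on the authors' scale only. The sign depended on the scale: -0.31 on the TPM scale and 0.03 without the mitochondrially encoded genes, neither of them called. In mean TPM there were 52.4 OXT transcripts per PAM transcript on day 4 and 82.5 on day 6, ratios that carry the error of OXT.

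PCSK5, a convertase that cuts proproteins at paired basic residues, had a higher mean on day 6 and did not pass the test. It stood at 23.2 TPM on day 4 and 38.1 TPM on day 6 in the authors' deposited table. The log2 fold change was 0.97 ± 0.53, its 95% interval ran from -0.07 to 2.02, and the authors' adjusted p was 0.212. The standard error of PCSK5 exceeded that of 95.5% of the 4259 entries within 2-fold of its level.

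LNPEP, also called oxytocinase, is a membrane aminopeptidase that opens the ring of oxytocin and vasopressin and also travels with the glucose transporter GLUT4. It averaged 6.25 TPM on day 4 and 8.82 TPM on day 6 in the authors' deposited table. The log2 fold change was 0.74 ± 0.32 with a 95% interval from 0.10 to 1.37. The unadjusted p was 0.0226 and the adjusted p 0.106 in the authors' Wald test, so LNPEP was not called. Without the mitochondrially encoded genes the change was 0.86 and the adjusted p of the Wald test 0.0456.

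The receptor genes AVPR1A and OXTR moved in opposite directions. On day 4 the authors' deposited table put AVPR1A at 0.168 TPM and OXTR at 0.199 TPM, both among the lowest-expressed entries (14.3% and 15.3% of entries lay below them). On day 6 AVPR1A stood at 1.88 TPM, above 36.7% of entries, while OXTR was listed at 0 in the authors' deposited table. The difference between both changes was not tested by itself.

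AVPR1A rose 12.9-fold (95% interval 6.19 to 27), a log2 fold change of 3.69 ± 0.54 with an adjusted p of 4.23e-09 in the authors' test. The ratio of both means was 11.2. Among the 803 entries called higher, AVPR1A had rank 14 by fold change and rank 16 by adjusted p. Of the 2301 entries within 2-fold of AVPR1A in mean level, 2.3% were called higher and 18.5% lower. The call held on the TPM scale (3.48) and without the mitochondrially encoded genes (3.82), as well as in a Wald test against a 1.5-fold change (adjusted p = 4.25e-06). With a t distribution of 5 degrees in place of the normal, under which 0 of all entries were called and 3133 had an unadjusted p under 0.05, its adjusted Wald p was 0.245 (unadjusted 0.00104).

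OXTR was called lower, with a Wald statistic of -3.98 and an adjusted p of 0.00168 by the authors. No fold is given because the day 6 mean is listed at 0. Under the t distribution the adjusted Wald p was 0.254 (unadjusted 0.0106). Other entries had the same pattern: 745 were listed at 0 on day 6 only, and 25 of these (3.36%) were called in the authors' deposited table. Of the 145 with a day 4 mean within 2-fold of that of OXTR, 8 were called, OXTR among them. The level is so low that the call rests on a small part of each library, and whether 1 or all of the 3 day 4 libraries carried it is unknown.

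**Figure D3:**
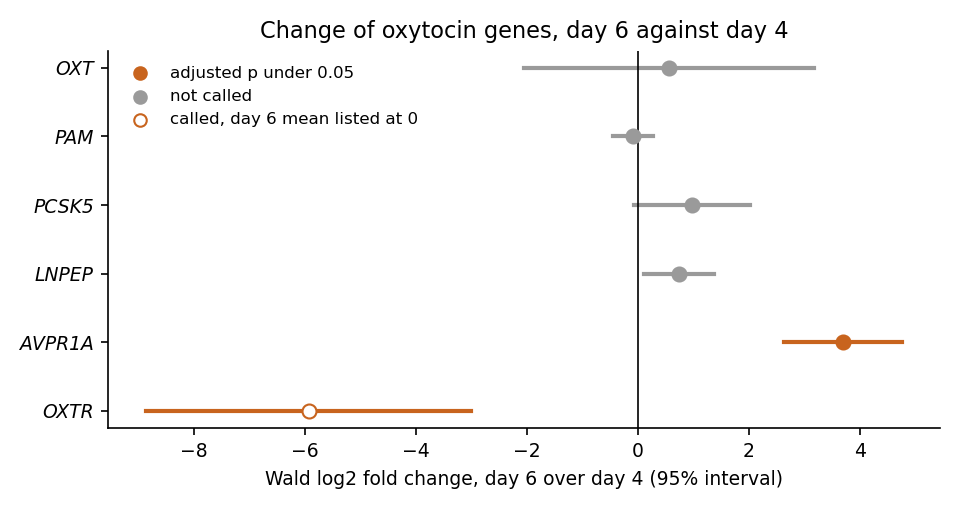
Wald log2 fold change (day 6 over day 4) with 95% Wald intervals of the 6 oxytocin genes, coloured where the authors' adjusted p is under 0.05. AVPR1A lies at 3.69 and OXTR at the far left, its open marker showing that the day 6 mean is listed at 0, while the interval of OXT spans -2.05 to 3.17 and that of PAM -0.46 to 0.27.

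The wider machinery of the hormone was described with 8 lists of 119 genes, of which 115 were tested. Of these 31 (27%) were called, 10 higher and 21 lower, beside 14.5% of all entries. The lists were written with earlier results of these data known, so this comparison is no test of them. On the TPM scale 2 were higher and 30 lower, and with the mitochondrially encoded genes left out 20 and 21. Over all entries the counts were 299 and 3829 in the former case and 1848 and 1595 in the latter. The median log2 fold change of the 115 genes was 0.05, and that of all entries was -0.04. Fewer cells of a type and less RNA per cell cannot be told apart in whole tissue.

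**Figure D4:**
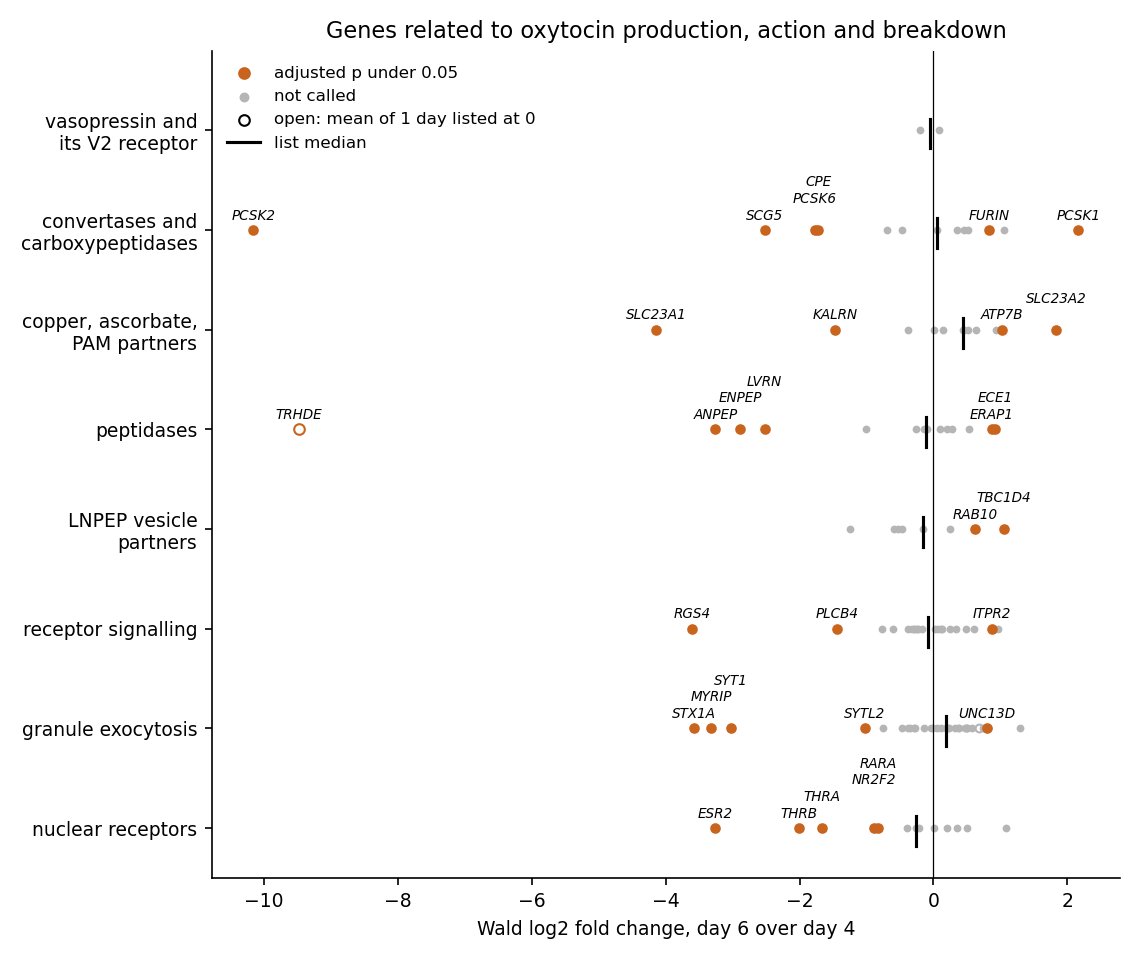
Wald log2 fold change (day 6 over day 4) of each tested gene of the 8 related lists, coloured and named where the authors' adjusted p is under 0.05, with list medians as black bars and open points where the mean of 1 day is listed at 0. PCSK2, SCG5 and CPE lie on the left of the convertase row and PCSK1 and FURIN on its right, and all called nuclear receptors lie on the left.

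Among convertases and carboxypeptidases 2 of 13 tested genes rose and 4 fell, with a median log2 fold change of 0.05. Of all entries 4.12% were called higher and 10.4% lower. PCSK2, a convertase of neuroendocrine granules, went from 3.2 to 0.00228 TPM in the authors' deposited table (log2 -10.16 ± 1.72, adjusted p = 5.68e-07). That size is a fitted value and no measured fold, because the day 6 mean of PCSK2 is almost nil. SCG5, the chaperone that PCSK2 needs for activation, fell from 33.2 to 5.02 TPM there (log2 -2.52 ± 0.57, adjusted p = 0.000337). CPE, the carboxypeptidase that trims basic residues from cut prohormones, fell from 47.4 to 12.4 TPM in the same table (log2 -1.72 ± 0.29, adjusted p = 8.05e-07). PCSK6 fell from 4.83 to 1.24 TPM (log2 -1.77 ± 0.48, adjusted p = 0.00395 by the authors).

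The 2 that rose fall outside the rule for naming genes and were named after their values were seen. PCSK1, the other neuroendocrine convertase, rose from 5.53 to 20.8 TPM in the authors' deposited table (log2 2.17 ± 0.80, adjusted p = 0.0492). FURIN, the convertase of the Golgi network, rose from 46.3 to 70.8 TPM (log2 0.83 ± 0.25, adjusted p = 0.0098 by the authors). Both calls were lost on the TPM scale, at adjusted p = 0.0655 and 0.055 in the Wald test. By mean TPM, PCSK5 was 4.2 times as abundant as PCSK1 on day 4 and 1.83 times on day 6, and FURIN 1.99 and 1.86 times as abundant as PCSK5.

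Partners of PAM were called in both directions, 2 higher and 2 lower of 12, beside 4.12% and 10.4% of all entries. Their median was 0.45. SLC23A2, the ascorbate transporter that supplies the cofactor of PAM to many tissues, rose from 22 to 65.5 TPM in the authors' deposited table (log2 1.84 ± 0.42, adjusted p = 0.000494). SLC23A1, the other ascorbate transporter, fell from 0.618 to 0.0287 TPM there (log2 -4.14 ± 1.12, adjusted p = 0.0042). Of this pair, SLC23A2 was by far the more abundant on both days. KALRN, a guanine nucleotide exchange factor that binds the cytosolic tail of PAM in rats, fell from 1.85 to 0.575 TPM (log2 -1.47 ± 0.41, adjusted p = 0.00508 by the authors). ATP7B, a copper pump, rose from 3.29 to 5.69 TPM in the deposited table (log2 1.03 ± 0.38, adjusted p = 0.0484), a call lost on the TPM scale (adjusted p = 0.115).

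Of 14 peptidases 2 rose and 4 fell, beside 4.12% and 10.4% of all entries, with a median of -0.12. TRHDE, which cuts thyrotropin-releasing hormone, stood at 0.869 TPM on day 4 and was listed at 0 on day 6 in the authors' deposited table (adjusted p = 4.94e-12). ANPEP, aminopeptidase N, fell from 12 to 1.12 TPM (log2 -3.26 ± 0.66, adjusted p = 5.17e-05 by the authors). In the authors' deposited table LVRN fell from 7.16 to 1.15 TPM (log2 -2.52 ± 0.59). ENPEP, which acts on angiotensin II, fell there from 2.02 to 0.238 TPM (log2 -2.89 ± 0.68). ERAP1, of the endoplasmic reticulum, and ECE1, which makes endothelin, rose there, with log2 fold changes of 0.87 ± 0.27 and 0.92 ± 0.31. Both were named after their values were seen and were not called on the TPM scale. ERAP2 (log2 0.20 ± 0.28), NPEPPS (0.10 ± 0.11) and RNPEP (-0.14 ± 0.18), which like TRHDE, ANPEP, LVRN, ENPEP and ERAP1 are aminopeptidases of the family of LNPEP, were not called, and they too were named after their values were seen.

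Of 9 proteins that share vesicles or sorting with LNPEP, 2 were called higher and 0 lower, with a median of -0.16. Over all entries 4.12% were called higher and 10.4% lower. The vesicle GTPase gene RAB10 rose from 44.9 to 59 TPM in the authors' deposited table (log2 0.62 ± 0.21, adjusted p = 0.0262). TBC1D4, a Rab GTPase activator of insulin-regulated vesicles, rose from 52.4 to 90.5 TPM there (log2 1.05 ± 0.35, adjusted p = 0.0276). On the TPM scale both calls were lost, and the lipoprotein receptor relative LRP1 (adjusted p = 0.0178) and the sorting receptor SORT1 (0.0384), named after their values were seen, were called lower by the Wald test.

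Downstream of the receptors 1 of 22 tested genes rose and 2 fell, with a median of -0.08. The share called is close to the 14.5% of all entries. RGS4, which speeds the shut-off of Gq and Gi proteins, fell from 13.9 to 1.01 TPM in the authors' deposited table (log2 -3.60 ± 0.45, adjusted p = 1.91e-12). The phospholipase PLCB4 fell as well, by 1.44 ± 0.36 on the log2 scale. GNAQ, the G protein that both receptors use, stood at 22.2 and 34 TPM and was not called (log2 0.87 ± 0.37, adjusted p = 0.0931 by the authors), with an adjusted p of 0.0428 when the mitochondrially encoded genes were left out of the scale. It was named after its values were seen. The calcium channel ITPR2 rose by 0.88 ± 0.30 in log2, a call lost on the TPM scale.

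Among genes of calcium-regulated granule release 1 of 31 rose and 4 fell, with a median of 0.19. As a share this is close to the 14.5% of all entries called. STX1A, a membrane SNARE of neurons and endocrine cells, fell from 13.5 to 1.11 TPM in the authors' deposited table (log2 -3.57 ± 0.63, adjusted p = 1.87e-06). The calcium sensor gene SYT1 fell from 30.9 to 3.33 TPM there (log2 -3.02 ± 0.63, adjusted p = 8.19e-05). Of the RAB27 effectors, the authors' deposited table had SYTL2 falling from 20.8 to 9.01 TPM (log2 -1.03 ± 0.20) and MYRIP from 2.25 to 0.187 TPM (log2 -3.32 ± 0.74). UNC13D, which primes granules, rose from 1.54 to 2.26 TPM there (log2 0.79 ± 0.22, adjusted p = 0.00487) and was named after its value was seen. RAB27A, also named so, was not called (40 to 81.4 TPM in the deposited table, log2 1.29 ± 0.61, adjusted p = 0.136).

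Nuclear receptors that are described at the oxytocin promoter were called lower in 5 of 13 and higher in 0, with a median of -0.27. The shares over all entries were 10.4% lower and 4.12% higher. ESR2 fell by 3.26 ± 0.67 on the log2 scale. In the authors' deposited table the thyroid hormone receptor THRB fell from 7.05 to 1.52 TPM (log2 -2.01 ± 0.46) and THRA from 30.4 to 8.36 TPM (log2 -1.66 ± 0.45). RARA, a retinoic acid receptor, fell from 24.9 to 12.1 TPM there (log2 -0.82 ± 0.25, adjusted p = 0.0122). NR2F2 (COUP-TFII), which competes with NR5A1 for a site in the bovine OXT promoter, fell by 0.89 ± 0.29 in log2, is also a theca marker and was named after its value was seen. NR5A1 (SF-1) stood at 62.4 and 109 TPM and was not called (log2 1.08 ± 0.44, adjusted p = 0.0786 by the authors), with an adjusted p of 0.0397 when the mitochondrially encoded genes were left out of the scale.

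Luteal markers were abundant on both days, so the labelled tissue and its markers match. The 6 steroidogenic markers summed to 4704 TPM on day 4 and 11923 TPM on day 6 in the authors' deposited table, with 1 of 6 called higher, and the 8 granulosa markers to 1251 and 4381 TPM, with 2 called higher and 1 lower. Nearly all of the granulosa sum was GSTA1, at 1132 TPM on day 4 and 4221 TPM on day 6, so it does not describe the set. FOXL2 was called higher too (26 to 29.4 TPM, log2 0.40 ± 0.14), and INHA, INHBA and CYP19A1 had higher means on day 6 without being called. HSD17B1 was the one called lower (2.87 to 0.588 TPM), and FSHR and AMH also had lower means on day 6. Log2 fold changes of the steroidogenic markers were 1.61 ± 1.03 for CYP11A1, 1.44 ± 1.01 for HSD3B1, 0.95 ± 1.23 for PTGFR, 2.32 ± 0.74 for STAR, 1.27 ± 0.69 for LHCGR and 1.08 ± 0.44 for NR5A1. Their standard errors, 0.44 to 1.23, all lay below the 1.33 of OXT. All 6 also lay above 0.27, the median of the 1036 entries averaging at least 100 TPM. CYP11A1, HSD3B1 and PTGFR were, like OXT, among the 36 of those entries with a standard error above 1. Pericyte and smooth muscle markers summed to 2250.3 TPM on day 4 and 560.3 TPM on day 6 in the same table, with 5 of 6 called lower. Theca markers summed to 552 and 183 TPM (3 of 6 lower), fibroblast markers to 5907 and 4531 TPM (2 of 4 lower) and immune markers to 42.3 and 17.8 TPM (2 of 4 lower) in the authors' deposited table. Endothelial markers summed to 219 and 201 TPM, with 0 of 6 called in either direction by the authors' Wald test. All these sums are in mean TPM, of which the mitochondrially encoded genes took 10.3% on day 4 and 29.2% on day 6. That larger share lowers the day 6 sums of all other genes. COL1A1, the largest part of the fibroblast sum, had a log2 fold change of 0.08 ± 0.26 and was not called. No matched marker was at 0 on either day, and the part of these shifts in the changes of AVPR1A, OXTR and the related genes was not tested.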

How the data were processed

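Per the labels' protocols, RNA of whole luteal tissue was isolated with a miRCURY kit, and stranded mRNA libraries were sequenced as single reads of 100 nt. FastQC, DESeq2 and the build ARS-UCD1.2 come from the submitters' processing notes, which give no versions, and how reads were counted is not given in the sources used here. Mean levels per day are in TPM by the authors, a unit inferred from column sums of 999999. The log2 fold change that the authors deposited equals the log2 ratio of the means after adding 1 and was not used for sizes. The deposited score is the Wald statistic, whose normal p-value equals the authors' p-value in 19485 entries (relative tolerance 1e-06), and a Benjamini-Hochberg adjustment of these returns the authors' adjusted p-value. The other 54 entries were not tested.

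Log2 fold changes and 95% intervals were computed from the score and its standard error (Python 3.11.15, numpy 2.4.6, pandas 2.3.3, scipy 1.17.1) and checked on simulated data. No test across libraries was possible. The labels give about 35000000 reads per sample as the sequencing yield, the reads counted in each library are unknown, and no counting interval was computed. No coordinates are printed, because the gene table at hand is of ARS-UCD2.0. Members, lists and tests were chosen with earlier results of these data known. Named are the 6 members, the called genes of each list (the 4 with the smallest adjusted p where more were called, or the leading 2 where none was), the 5 entries nearest OXT in mean level and the luteal and granulosa markers. Not all of the granulosa markers are given with values. Genes of the 8 lists that were not matched include AVPR1B, PLCB3 and VAMP3. Proteomics was not analysed here.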

Additional observations from a re-analysis of the deposited data

How the results depend on the processing

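No paired analysis was possible because the table holds no values per library; for the same reason leaving out a library and a count test were not run, and no member's symbol stands on a further entry. The calls of AVPR1A and OXTR kept their side on the TPM scale, on that scale with mitochondrially encoded genes left out, at an adjusted p under 0.01 and in a Wald test against a 1.5-fold change (largest adjusted p 0.0176). Under a t distribution (5 degrees of freedom) both were lost: AVPR1A at 3.69 had an adjusted p of 0.245 and OXTR, with a fitted value of -5.94 that is no bound, 0.254, at unadjusted p of 0.00104 and 0.0106. OXTR fell below the minimum mean of 1 TPM and has no value there. LNPEP passed the threshold at 0.86 without the mitochondrially encoded genes. As log2 ratios of mean TPM, AVPR1A was 2.89 with 0.1 added and 1.30 with 1 added, OXTR -1.58 and -0.26, and PAM -0.29, -0.29 and -0.28 with 0, 0.1 and 1 added. For AVPR1A and OXTR the added constant shrinks a low value, while PAM moved with 0 added.

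Over all entries, 803 called higher and 2020 called lower became 299 and 3829 on the TPM scale, 1848 higher without the mitochondrially encoded genes, 301 and 1142 at an adjusted p under 0.01, 45 and 457 against a 1.5-fold change, and 0 and 0 with the t distribution (3133 at an unadjusted p under 0.05). Of all related genes, 10 called higher became 2 on the TPM scale, 3 at an adjusted p under 0.01 and 20 without the mitochondrially encoded genes. With the t distribution 0 members of any list were called. On the TPM scale the count called higher was 0 for convertases, peptidases, vesicle partners and receptor signalling and 1 for partners of PAM, while 2 vesicle partners and 4 signalling genes were called lower. Without the mitochondrially encoded genes 3 signalling genes, 5 exocytosis genes and 1 nuclear receptor were called higher. At an adjusted p under 0.01 the count called higher was 1 for convertases and for partners of PAM and 0 for peptidases, vesicle partners and signalling, and 3 nuclear receptors were called lower. At a minimum mean of 1 TPM, 1 partner of PAM was called lower. No called member or called gene of the 8 lists changed sign under the alternatives run for it. The log2 ratios with an added constant were run for the 6 members alone, and the genes nearest OXT in level had no alternatives.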

Other observations

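Among the 1036 entries averaging at least 100 TPM, 36 had a standard error above 1 in the authors' deposited table. OXT and the steroidogenic markers CYP11A1, HSD3B1 and PTGFR were among these. The other entries with a symbol were of mixed kinds, with no kind tested. They included the melanocortin receptor accessory protein gene MRAP (125 to 210.1 TPM, log2 0.96 ± 1.38), the cholesterol synthesis genes SQLE (log2 1.46 ± 1.07) and DHCR7 (1.34 ± 1.01), the matrix gene TNN (1.17 ± 1.34), the parathyroid hormone-related protein gene PTHLH (0.74 ± 1.26) and the chemokine gene XCL1 (-0.36 ± 1.09), of which none was called by the authors. They were named after their values were seen, and whether they varied with OXT from library to library cannot be computed from group means.

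NPS, the gene of the neuropeptide S precursor, was listed at 849 TPM on day 4 and 756 TPM on day 6 in the authors' deposited table, with a log2 fold change of -0.03 ± 1.94 and an adjusted p of 0.993. Its standard error was the largest of any entry with a symbol averaging at least 100 TPM.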
